A study of Mus musculus with 25 samples.

Results

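Glycogen metabolism is described here by 9 genes that encode the enzymes of glycogen synthesis and breakdown, which are Pygm, Pygb, Pygl, Phka1, Phka2, Phkb, Phkg1, Gys1 and Gbe1. They were chosen by name and located in the RefSeq annotation of mm10 (GRCm38.p6), and they are 9 of 26180 genes with a curated transcript. The data are the positions and scores of Spin1 and H3K4me3 peaks obtained by ChIP-seq, a method that sequences the DNA bound by an antibody's target. Spin1 is a protein that reads H3K4me3, the trimethylated lysine of histone H3 found at promoters. Chromatin came from primary myoblasts, the cultured precursors of muscle fibers, of C57BL/6 mice (C57BL/6 N in the study's methods) at an age of 10 days, which were cultivated without any treatment named in the labels. Primary myoblasts were isolated from limb muscle by preplating, which removes the fibroblasts that attach early. Each antibody gave 1 library, the peaks were called against an input library, and the genotype at Spin1 is not given. Thus the spread between cultures cannot be estimated, no test was possible, and every comparison is a description. The title of the histone sample reads H3K4me3, while its antibody field lacks the degree of methylation. Neither the input nor the 22 RNA-seq samples of the series were used here, so that nothing is said about mRNA levels.

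The identity of the cells was checked with marker genes. All 6 myoblast markers (Myod1, Myf5, Pax7, Des, Cdh15 and Itga7) had both peaks at the promoter. Among all genes, 50.6% had both peaks and 61.9% had H3K4me3. Of the 3 fibroblast markers, H3K4me3 was at 3 and Spin1 at 2, with Dcn lacking Spin1. The 3 liver markers Alb, Apoa1 and Ttr had neither peak. H3K4me3 was found at all 3 neuron markers and at 1 of 3 each for endothelium (Cdh5) and blood (Cd68), and Spin1 was at 0 of these 9 genes' promoters. H3K4me3 was thus also listed at promoters of genes known from other tissues, with peak scores from 51.78 (Cd68) to 1557.77 (Rbfox3). At every myoblast and fibroblast marker the H3K4me3 score was 3100, so it did not separate these 2 cell types. The part of other cells in the results was not tested.

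Glycogen is the branched glucose polymer that muscle fibers store for contraction and that liver stores for blood glucose. Glycogen synthase extends the chains and the branching enzyme adds the branches, whereas glycogen phosphorylase releases glucose phosphate from the chain ends. Phosphorylase kinase, a complex of alpha, beta, gamma and delta subunits, activates phosphorylase upon calcium and hormonal signals. Several of these enzymes exist as separate genes for muscle and for liver or other tissues, and loss of the muscle phosphorylase causes McArdle disease, a glycogen storage disease of muscle. Accordingly, the genes fall into 4 muscle isoforms (Pygm, Phka1, Phkg1 and Gys1), 3 ubiquitous or liver isoforms (Pygb, Pygl and Phka2) and 2 genes that serve all tissues (Phkb and Gbe1).

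To show the promoters that set the members apart, the 300 bases from 250 before the TSS to the 50 that begin with it are given for the 3 phosphorylases and Phkg1, from RefSeq (GRCm38.p6), on the strand of the gene and 5′ to 3′. Capitals mark CpG dinucleotides, which are dense in promoters of most broadly used genes. Pygm lies at chr19:6384158-6384457 (plus strand), Phkg1 at chr5:129879039-129879338 (minus strand), Pygb at chr2:150786546-150786845 (plus strand) and Pygl at chr12:70227634-70227933 (minus strand).
Pygm: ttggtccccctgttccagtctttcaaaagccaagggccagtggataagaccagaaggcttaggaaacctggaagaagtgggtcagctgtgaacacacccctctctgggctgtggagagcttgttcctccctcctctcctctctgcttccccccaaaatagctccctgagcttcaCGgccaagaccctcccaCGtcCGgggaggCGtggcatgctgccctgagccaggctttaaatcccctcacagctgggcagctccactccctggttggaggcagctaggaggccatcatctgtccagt
Phkg1: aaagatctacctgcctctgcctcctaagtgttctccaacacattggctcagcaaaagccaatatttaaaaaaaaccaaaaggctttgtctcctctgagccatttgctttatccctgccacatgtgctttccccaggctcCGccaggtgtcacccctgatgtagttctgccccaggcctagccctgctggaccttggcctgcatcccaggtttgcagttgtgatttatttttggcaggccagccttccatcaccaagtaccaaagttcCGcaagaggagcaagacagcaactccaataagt
Pygb: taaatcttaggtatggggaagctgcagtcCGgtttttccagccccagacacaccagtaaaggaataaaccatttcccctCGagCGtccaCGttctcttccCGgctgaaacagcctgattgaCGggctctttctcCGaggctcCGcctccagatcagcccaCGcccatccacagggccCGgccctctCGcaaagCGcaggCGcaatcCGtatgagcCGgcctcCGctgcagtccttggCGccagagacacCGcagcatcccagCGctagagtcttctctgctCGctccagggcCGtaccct
Pygl: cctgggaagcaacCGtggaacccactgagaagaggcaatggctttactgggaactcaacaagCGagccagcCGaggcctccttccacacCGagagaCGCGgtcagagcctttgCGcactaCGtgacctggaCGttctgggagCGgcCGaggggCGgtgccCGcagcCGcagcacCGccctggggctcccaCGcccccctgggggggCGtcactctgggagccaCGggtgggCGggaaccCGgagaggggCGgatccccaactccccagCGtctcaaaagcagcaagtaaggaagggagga

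The promoters of the muscle phosphorylase Pygm and of the muscle kinase subunit Phkg1 held few CpG dinucleotides. They had 4 and 2, respectively, against a median of 12 over all promoters. Those of the brain and liver phosphorylases, Pygb and Pygl, held 21 and 22. The remaining muscle isoforms did not share the low content, since Phka1 had 25 CpG dinucleotides and Gys1 had 14.

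Occupancy of a promoter meant that at least 1 bp of a peak fell within TSS±1 kb of a curated transcript of the gene. By this rule, Spin1 was at the promoter of 7 of the 9 glycogen genes, against 50.7% of all genes (95% Wilson confidence interval from 50.1 to 51.3%, which covers counting error only). H3K4me3 was at 8 of 9 promoters, against 61.9% of all genes. Both peaks were present at 7 promoters, against 50.6% of all genes. Among protein-coding genes alone, Spin1 was at 56.7% and H3K4me3 at 68% of promoters. Pygl had H3K4me3 without Spin1, a combination found at 11.3% of all genes, and Phkg1 had neither peak, as had 38% of all genes. The classes hold between 2 and 4 genes, so whether occupancy follows the division into isoforms was not tested. Spin1 was at 3 of 4 muscle isoforms, at 2 of 3 ubiquitous or liver isoforms and at 2 of 2 genes that serve all tissues. When only the 50% of peaks with the highest score were kept, Spin1 was at 4 of 9 members, against 38.1% of all genes. These were 1 muscle isoform (Gys1), 1 ubiquitous or liver isoform (Pygb) and the 2 genes that serve all tissues (Phkb and Gbe1). With all peaks, each class with more than 2 genes had a single gene without Spin1, which was Phkg1 among the muscle isoforms and Pygl among the others.

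**Figure D1:**
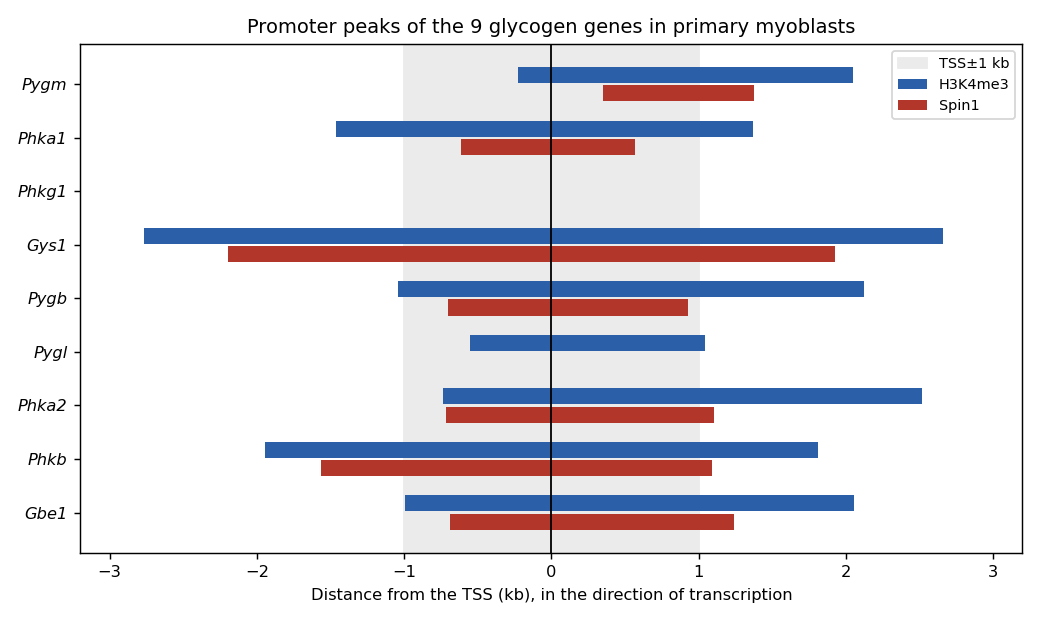
Horizontal bars show the H3K4me3 (blue) and Spin1 (red) promoter peaks of the 9 genes by distance from the TSS in kb along the direction of transcription, with TSS±1 kb in grey. Spin1 peaks lie inside the H3K4me3 peaks at 7 genes, the Pygm peak starts 353 bp after the TSS, Pygl has only H3K4me3 and Phkg1 has no bar.

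For each peak, the peak caller MACS gave a p-value against the input, and the deposited score is its negative log10 multiplied by 10. Scores accumulate at 3100, grow with depth and peak width, and were read only within a list. All 8 H3K4me3 promoter peaks of the glycogen genes had a score of 3100, which 84.1% of the 14605 H3K4me3 promoter peaks reached, so this score did not order them. The Spin1 scores at the same genes ranged from 255.7 to 3100, and 43.9% of the 11797 Spin1 promoter peaks reached 3100. The members were therefore described by Spin1 score, peak width and position.

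Glycogen phosphorylase, the enzyme that breaks glycogen down, is encoded by Pygm in muscle, by Pygb in brain and many other tissues, and by Pygl in liver. The 3 genes showed 3 different promoter patterns. At Pygb (chr2, plus strand, TSS at 150786796), the Spin1 peak was 1632 bp wide with a score of 1377.75. It held the TSS and extended from 701 bp upstream to 930 bp downstream, within an H3K4me3 peak of 3162 bp. At Pygm (chr19, plus strand, TSS at 6384408), the Spin1 peak at chr19:6384761-6385783 was 1023 bp wide with a score of 255.70, the lowest of the 7 members with Spin1. This score was above that of only 9.88% of all Spin1 promoter peaks, and the width was above that of 10.2%. The Pygm peak did not hold the TSS but started 353 bp downstream, beyond the 314 bp of exon 1, and its center lay in intron 1. Across the 13052 genes with both peaks within 1 kb of the TSS of a single reference transcript per gene, 94.8% of Spin1 peaks held the TSS, and 3.06% lay wholly downstream. The H3K4me3 peak of Pygm, at chr19:6384180-6386460, did hold the TSS and reached further downstream, with 228 bp upstream and 2052 bp downstream. Its center lay 912 bp downstream of the TSS. The H3K4me3 centers of Phka2, Pygb, Gbe1 and Pygl also lay downstream, at 891, 541, 532 and 247 bp, while those of Phka1, Gys1 and Phkb lay upstream.

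At Pygl (chr12, minus strand, TSS at 70227683), no Spin1 peak was listed, whereas the H3K4me3 peak at chr12:70226637-70228236 was 1600 bp wide and extended from 553 bp upstream to 1046 bp downstream. It was the narrowest of the 8 H3K4me3 promoter peaks of the glycogen genes, and its width was above that of 13.2% of all H3K4me3 promoter peaks. This peak also overlapped the promoter of F730035M05Rik, so the H3K4me3 of the 2 genes cannot be told apart. Thus the muscle phosphorylase had a weak Spin1 peak, the brain form had a Spin1 peak at its TSS and the liver form had none in the list. A peak missing from the list can be a signal below the threshold of the authors, and read depth is unknown.

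To show the sequence below the displaced peak, the 300 bases around the center of the Spin1 peak of Pygm are given from GRCm38.p6, at chr19:6385123-6385422 on the plus strand, 5′ to 3′, with CpG dinucleotides in capitals.
Pygm Spin1 peak center: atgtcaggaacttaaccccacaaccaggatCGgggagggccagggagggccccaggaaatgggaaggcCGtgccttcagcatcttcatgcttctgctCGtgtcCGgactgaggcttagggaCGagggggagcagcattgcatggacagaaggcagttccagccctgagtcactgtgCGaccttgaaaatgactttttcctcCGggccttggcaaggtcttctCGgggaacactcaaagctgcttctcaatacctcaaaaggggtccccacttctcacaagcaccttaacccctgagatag

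This stretch, which extends from 715 to 1014 bp downstream of the TSS inside intron 1, held 8 CpG dinucleotides with an observed to expected ratio of 0.34. This ratio divides the number of CpG dinucleotides by the number that the C and G content would give in shuffled order, and it was 0.16 in the Pygm promoter shown above. Over the whole 1023 bp, the Spin1 peak held 18 CpG dinucleotides with a ratio of 0.23, which was above only 2.16% of all Spin1 promoter peaks (median 0.61). In the H3K4me3 peak of Pygm the ratio was 0.26, above 5.57% of the H3K4me3 promoter peaks (median 0.51). Pygm was therefore poor in CpG in the promoter sequence and over the whole of each peak. The stretches from 100 to 200 and from 200 to 300 bp downstream of the TSS held more, with 5 and 7 CpG dinucleotides. They lay before the start of the Spin1 peak and inside the H3K4me3 peak.

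Phosphorylase kinase activates phosphorylase, and its alpha subunit, a regulatory subunit, is encoded by Phka1 in muscle and by Phka2 in liver. Both genes had both peaks, and both Spin1 peaks were on X and held the TSS. At Phka1 (minus strand, TSS at 102644246), the Spin1 peak was 1180 bp wide with a score of 925.03 and reached from 613 bp upstream to 566 bp downstream. At Phka2 (plus strand, TSS at 160502162), it was 1822 bp wide with a score of 1122.34 and reached from 718 bp upstream to 1103 bp downstream. The 2 scores were above 24.6 and 28.2% of all Spin1 promoter peaks, so the muscle and the liver form had similar ranks. The H3K4me3 peaks were 2835 bp wide at Phka1 and 3255 bp wide at Phka2.

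Phkb, the gene of the beta subunit used in all tissues, lies on chr8 (plus strand, TSS at 85840988). Its Spin1 peak was 2654 bp wide with a score of 3100, and it reached from 1564 bp upstream to 1089 bp downstream. The peak also held the promoter of Itfg1, so that Spin1 at the 2 genes cannot be told apart. The H3K4me3 peak of 3759 bp covered both promoters as well.

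Phkg1 encodes the catalytic gamma subunit of muscle and had no promoter peak in either list. On chr5 (minus strand, TSS at 129879088), the nearest Spin1 peak began 6740 bp upstream of the TSS and overlapped the Chchd2 promoter, and the nearest H3K4me3 peak, with a score of 140.65 and no promoter below it, began 4635 bp upstream. The liver gamma subunit Phkg2, which is not one of the 9 genes, had both peaks at its promoter, with a Spin1 score of 1544.89. Among the alpha, beta and gamma subunit genes, that of the muscle gamma subunit was thus the single one without a peak.

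Gys1 encodes the muscle form of glycogen synthase, which extends the glycogen chains. On chr7 (plus strand, TSS at 45434839), its Spin1 peak was 4127 bp wide with a score of 3100, and its H3K4me3 peak was 5426 bp wide, the widest of the members in both lists. These widths were above 93.6 and 89.7% of the promoter peaks of their own lists. Both peaks also covered the promoter of Ruvbl2, so the signal of the 2 genes cannot be separated. The liver form Gys2 had neither peak at its promoter.

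Gbe1, the gene of the branching enzyme, had a Spin1 peak of 1932 bp with a score of 3100 on chr16 (plus strand, TSS at 70313949). It reached from 689 bp upstream to 1242 bp downstream, within an H3K4me3 peak of 3047 bp. No other curated promoter was below either peak.

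**Figure D2:**
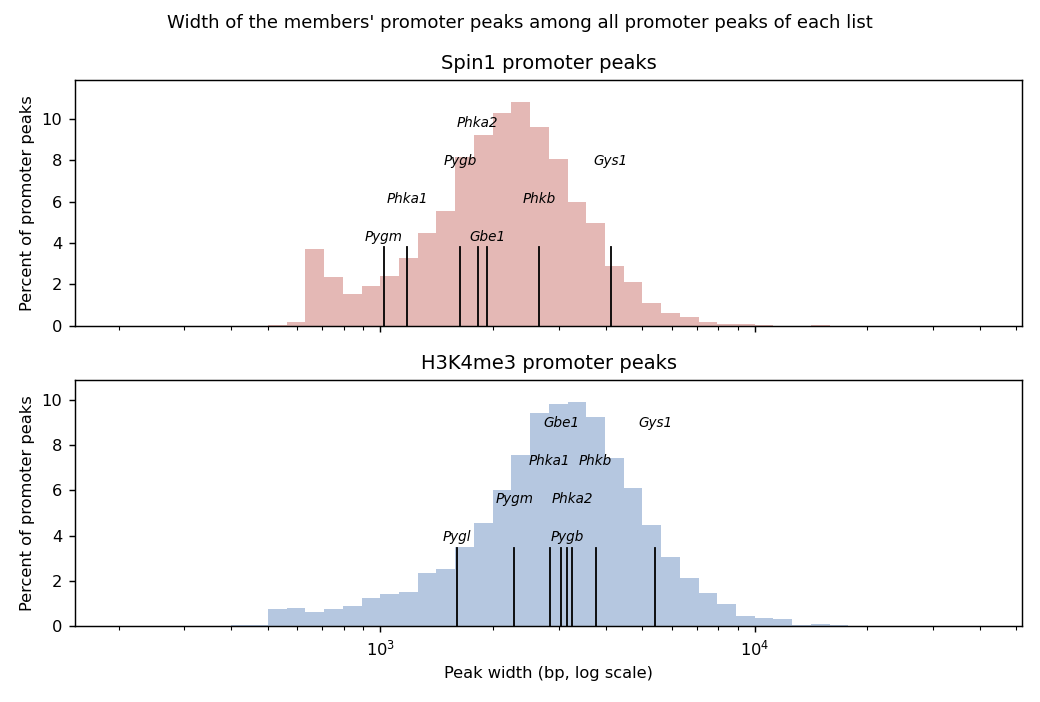
Histograms show the width in bp (log axis) of all Spin1 (top) and H3K4me3 (bottom) promoter peaks as a percent of the list, and black lines mark the glycogen genes. For Spin1, 5 of 7 members lie below the median of 2167 bp, with Pygm at 1023 bp and Gys1 at 4127 bp as the extremes, and for H3K4me3 Pygl at 1600 bp is the narrowest.

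Next, the position of the Spin1 peaks was compared with that of H3K4me3. At all 7 genes with both, 100% of the Spin1 peak lay inside the H3K4me3 peak, as was the case for 92.1% of the same 13052 genes. The Spin1 peak covered between 41.6% (Phka1) and 76.1% (Gys1) of the H3K4me3 peak. The values in between were 44.8% for Pygm, 51.6% for Pygb, 56% for Phka2, 63.4% for Gbe1 and 70.6% for Phkb. The highest coverage was thus at Gys1 and Phkb, the 2 of these 7 promoters that are shared with another gene. The Pygl promoter, shared with F730035M05Rik, had no Spin1 peak. Each Spin1 peak of a member was narrower than its H3K4me3 peak, and the median ratio of the widths over all genes was 0.65.

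Peaks were then followed through the gene bodies and 50 kb on each side. No Spin1 peak lay within a gene body away from the promoter at any of the 9 genes (0 of 9, against 9.41% of all genes). The genes were between 14.1 and 256 kb long, and no share for genes of like length was computed. H3K4me3 lay in the body of 4 of 9 genes (Pygm, Gys1, Pygl and Gbe1), against 21% of all genes. These were 5 peaks. The peak at the 3′ end of Pygm covered the promoter of Rasgrp2, and 1 of the 2 in Gys1 covered the promoter of Ftl1. The second Gys1 peak (score 436.07) lay in intron 2, the Pygl peak (score 333.41) in intron 19 and the Gbe1 peak (score 51.98) in intron 14, none of them at an annotated promoter.

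In the bodies and flanks together, 19 Spin1 peaks were found, of which 7 were at member promoters. Of the remaining 12, 11 overlapped a promoter of another gene, such as Men1 and Sf1 upstream of Pygm, Hdac8 downstream of Phka1, Chchd2 upstream of Phkg1, and Snrnp70, Ftl1 and Bax around Gys1. A single Spin1 peak, with a score of 113.66 and 27803 bp downstream of the Gys1 TSS, was at no promoter. All 12 overlapped an H3K4me3 peak, as did 91.3% of all Spin1 peaks. Of 37 H3K4me3 peaks, 8 were at member promoters and 29 away from them. Of these 29, 17 overlapped another promoter and 12 overlapped none. A Spin1 peak overlapped 12 of the 29, and 46.5% of all H3K4me3 peaks. The 12 Spin1 and 29 H3K4me3 peaks were collected around genes and leave out member promoters. Their shares cannot be compared directly with those of all peaks. Counting the members' own promoters, 18 of these 19 Spin1 peaks were at a promoter, whereas 69% of all Spin1 peaks were. These shares cannot be compared directly, because the 19 peaks were collected around genes and include the 7 at member promoters.

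Pygl was the only member with no Spin1 peak in the gene or within 50 kb, which was the case for 26.1% of all genes. Around it, 4 further H3K4me3 peaks were listed, with scores of 67.25, 832.59, 333.41 and 1418.09, and none of them was at an annotated promoter. The highest of these lay 6948 bp upstream of the TSS. In contrast, Phkg1 had no promoter peak but 4 Spin1 peaks in its flanks, each at the promoter of a neighbor (Sumf2, Chchd2, Zbed5 and Nupr1l). The 2 genes without Spin1 at the promoter therefore had different surroundings.

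**Figure D3:**
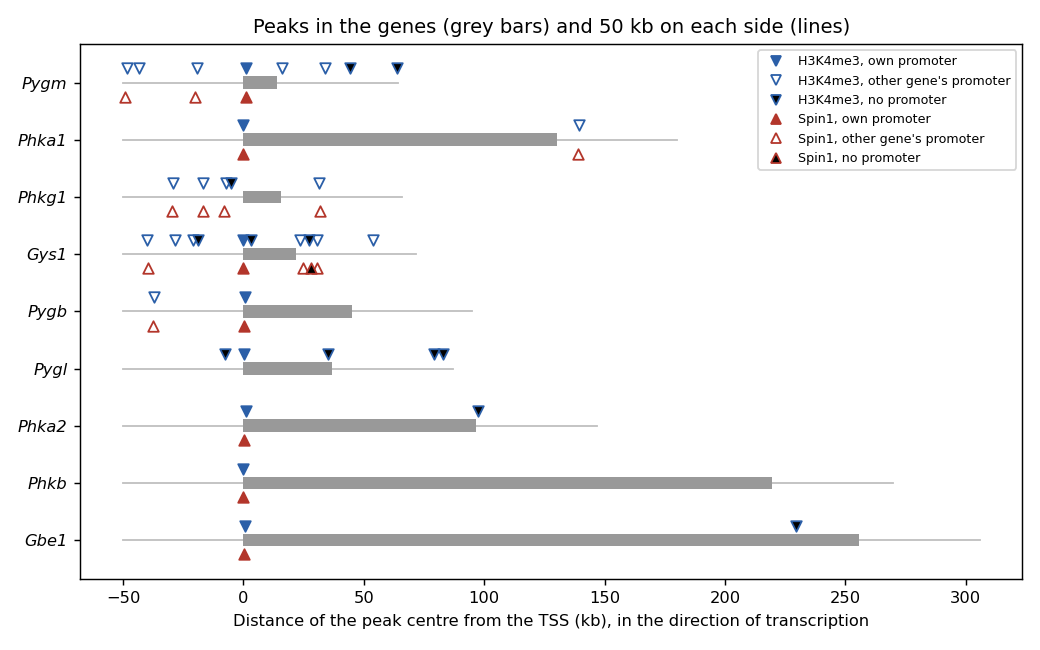
Triangles mark the centers of H3K4me3 (blue, above) and Spin1 (red, below) peaks by distance from the TSS in kb, with gene bodies as grey bars and 50 kb flanks as lines, filled for the own promoter, open for another gene's promoter and black for none. No Spin1 triangle away from the TSS lies within a gene body, and Pygl has no Spin1 triangle.

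CpG content was next set against occupancy, because promoters differ widely in both. Over 19528 genes with a RefSeq promoter sequence, the median observed to expected ratio was 0.55, and the promoters were divided by this ratio into 10 bins of equal size, with bin 1 the lowest. Spin1 was at 4.97% of the genes in bin 1 and at 94.8% in bin 10, and H3K4me3 was at 7.63 and 99.5%. Among the members, Phkb had the highest ratio (0.94), followed by Phka1 (0.85), Pygb (0.80), Phka2 (0.74), Pygl and Gbe1 (0.65 each) and Gys1 (0.55). Pygm (0.16) and Phkg1 (0.11) were far below and lay in bin 2, in which Spin1 was at 7.94% and H3K4me3 at 13.9% of the genes. Pygm, with both peaks, and Phkg1, with none, thus differed in occupancy while their promoter sequences shared a bin. This sequence ends before the Spin1 peak of Pygm begins and is shorter than the window used for occupancy. In the 1 kb upstream and the 1 kb downstream of the TSS, Pygm held more CpG dinucleotides (12 and 26) than Phkg1 (4 and 8). Whether CpG content bears on the difference between these genes was not tested. Pygl shared bin 6 with Gys1 and Gbe1. In this bin Spin1 was at 73.3%, H3K4me3 at 91.1%, and H3K4me3 without Spin1, the pattern of Pygl, at 17.9% of the genes. Of the members in bin 6 and above, Pygl was the only one without Spin1 at the promoter.

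**Figure D4:**
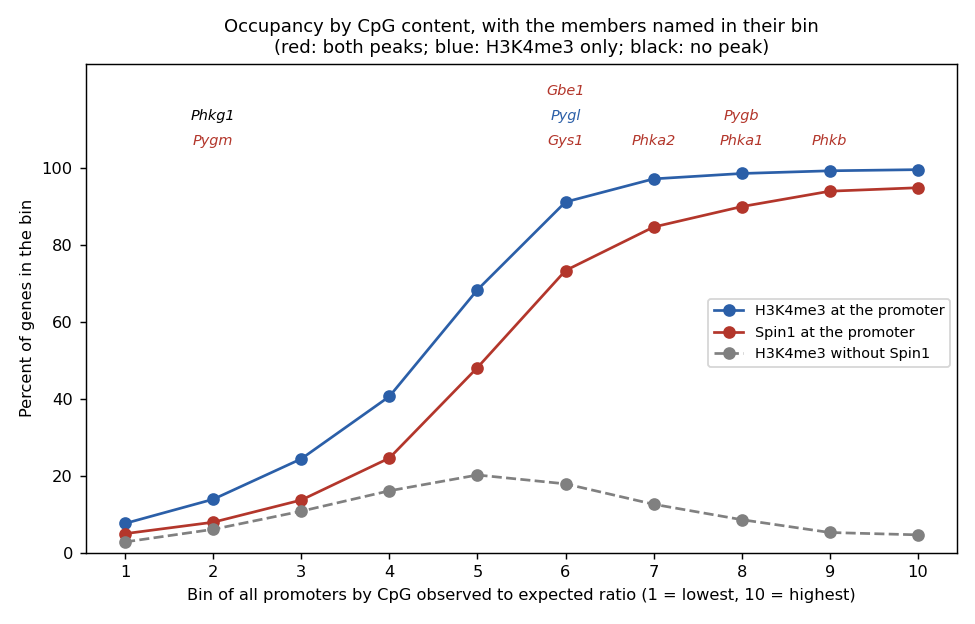
The percent of genes with Spin1 (red line), H3K4me3 (blue line) or H3K4me3 without Spin1 (grey dashed line) at the promoter is plotted by bin of CpG observed to expected ratio, from 1 (lowest) to 10, and the members are written above their bin, in red for both peaks, blue for H3K4me3 only and black for none. Pygm and Phkg1 are in bin 2, where 7.94% of genes have Spin1.

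The distribution of CpG dinucleotides along the genes differed as well. In the 1 kb upstream and the 1 kb downstream of the TSS, Pygm had 12 and 26 CpG dinucleotides and Phkg1 had 4 and 8. Gbe1 was the most uneven, with 15 upstream and 89 downstream, and Phkb had the opposite order, with 63 upstream and 17 downstream. The longer side of the Spin1 peak was that with more CpG at Gys1, Pygb, Phka2, Phkb and Gbe1. It was not at Phka1, which had 35 upstream and 42 downstream and a peak that reached further upstream. At Pygm the Spin1 peak lay wholly downstream of the TSS, so its sides cannot be compared. The stretches from 300 to 400 and from 400 to 500 bp downstream, where the Pygm peak begins, held 0 CpG dinucleotides. Spin1 peaks in general reached further downstream, with medians of 797 bp upstream and 1372 bp downstream of the TSS. Pygl, without a Spin1 peak, had 34 and 38, close to the 39 and 35 of Gys1, whose Spin1 peak also covers the Ruvbl2 promoter. Whether CpG content bears on the missing Spin1 peak of Pygl was not tested.

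**Figure D5:**
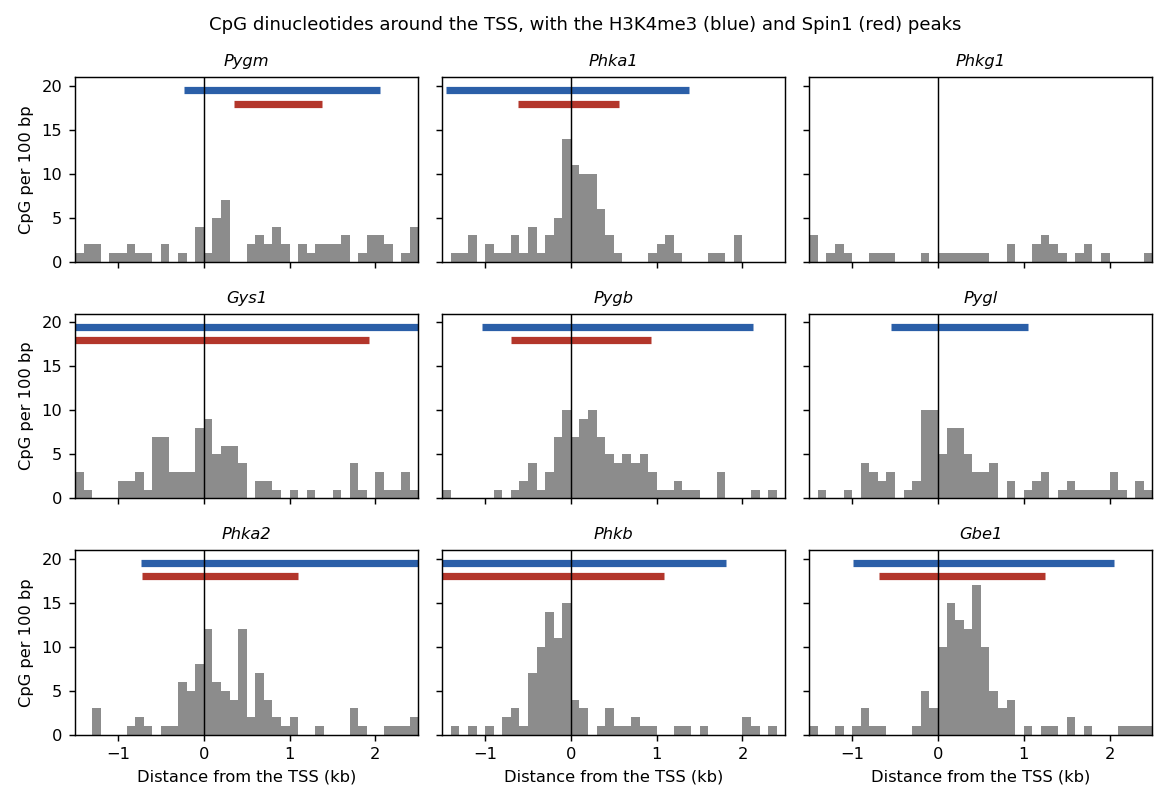
Bars show the number of CpG dinucleotides per 100 bp between 1.5 kb before and 2.5 kb after the TSS of each gene, and the lines above give the H3K4me3 (blue) and Spin1 (red) peaks, cut at the edges of the plot. Phkg1 is low throughout and has no peak, whereas Pygl has a dense stretch at the TSS with H3K4me3 alone.

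Promoter sequences were also searched for motifs that myogenic factors are known to bind. The E-box, CANNTG, is bound by bHLH factors such as Myod1, and the MEF2 consensus by the Mef2 factors of muscle. Both motifs read the same on both strands, and overlapping matches were counted. In the 300 bases, all 4 muscle isoforms held an E-box, with 12 in total, whereas the 3 ubiquitous or liver isoforms held 0. Phkb held 1 and Gbe1 held 2. The contrast between the isoforms depended on the window. Within TSS±500 bp, Pygb, Pygl and Phka2 held 4, 4 and 2, and Pygm, Phka1, Phkg1 and Gys1 held 7, 5, 7 and 3. An E-box is a common match, since 69.6% of all promoters held at least 1 in the 300 bases and 30.4% held none.

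Phkg1 had the most E-boxes, with 5, a number reached by 1.69% of all promoters. They were CATTTG at 151 bp, CACATG at 133 bp, CATGTG at 131 bp, CAGGTG at 108 bp and CAGTTG at 37 bp upstream of the TSS, each position being that of the first base, and those at 133 and 131 bp overlap. Pygm had 3, which were CAGCTG at 168 bp upstream, CAGCTG again at 8 bp upstream and CATCTG at 38 bp downstream; 15.1% of all promoters held at least 3. Phka1 had CACTTG at 150 bp and CAGCTG at 38 bp upstream, and Gys1 had CAGCTG at 206 bp upstream and at 4 bp downstream. E-boxes were more frequent in promoters with little CpG, at 80.2% of bin 2 and 54.9% of bin 9, so their number and the CpG content of Pygm and Phkg1 cannot be told apart here. In the promoter sequence, the number of E-boxes did not follow Spin1 either. There, Phkg1 had the most and no Spin1 peak, and Pygb and Phka2 had none and a Spin1 peak. Over the whole Spin1 peak, however, Pygb held 6 E-boxes and Phka2 held 4. An E-box was present in 99.4% of all Spin1 promoter peaks. No MEF2 consensus was present in the promoter sequence of any of the 9 genes, and 2.77% of all promoters held it. A match is only a stretch of letters, and the binding of these factors was not analysed here.

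Finally, 22 further genes listed for glycogen metabolism or related to it were examined. Both peaks were at the promoter of 20 of 22, against 50.6% of all genes. Gys2 and Ppp1r3a had neither, as had 38% of all genes. Among protein-coding genes alone, Spin1 was at 56.7% of promoters. Whether these genes differ from others of like CpG content was not tested. Gyg, Ugp2, Pgm1 and Pgm2, which act in glycogen priming and precursor supply, had both peaks, as had Pgm5, which is related to phosphoglucomutase by sequence but is not known as an enzyme of this pathway, and 4 of 4 genes of lysosomal breakdown and quality control (Gaa, Stbd1, Epm2a and Nhlrc1). Both peaks were present at 6 of 7 glycogen-targeting subunits of protein phosphatase 1, which guide the phosphatase to glycogen, and the exception was Ppp1r3a, the subunit known from skeletal muscle. Spin1 scores at the 20 promoters ranged from 193.81 to 3100, and 8 of 20 reached 3100, compared with 3 of the 7 members with Spin1 (Gys1, Phkb and Gbe1). The lowest score was that of Ppp1r3c, below the 255.70 of Pygm. Of the 31 genes examined, Phkg1, Gys2 and Ppp1r3a were those without any promoter peak. Pygl was the only one with H3K4me3 alone, a pattern found at 11.3% of all genes.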

How the data were processed

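Peaks of Spin1 and H3K4me3 in primary myoblasts, with 1 library each, were analysed. For both, the authors aligned read pairs to mm10 using bowtie 2, called peaks with MACS 1.4.2 against input and removed those with a false discovery rate above 1%. They deposited the start, end and score of each peak, and the score is the negative log10 of the p-value multiplied by 10. The lists hold no read counts, so depth is unknown and peaks missed for want of depth leave no trace. Positions were converted to count from 1. Promoters were TSS±1 kb of 45756 curated transcripts (RefSeq release 108.20200622), and an overlap of 1 bp was sufficient. All 9 members matched a promoter sequence, as did 18 of 22 pathway genes, whose sequence features were not summarized. Some genes of the pathway are not reported here. The members and lists were chosen with earlier results of these data known. The rule for names took all members, pathway genes that differ from their class and neighbors whose promoter a peak overlaps, and other pathway genes were named after their values were seen. The overlap script was tested on simulated data. Python 3.11.15, NumPy 2.4.6, pandas 2.3.3, SciPy 1.17.1, pysam 0.24.0 and matplotlib 3.10.9 were used. Protein sequences were not used here.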

Additional observations from a re-analysis of the deposited data

How the results depend on the processing

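Of 48 alternative values for the counts of members and of peaks around them, 39 were within 1.5 times the reported value. When only the 50% of peaks with the highest score in each list were kept, Spin1 remained at 4 member promoters (Gbe1, Gys1, Phkb and Pygb) and both peaks at 4, Spin1 was at 1 muscle isoform and at 1 ubiquitous or liver isoform, and the peaks away from member promoters numbered 6 for Spin1 and 17 for H3K4me3. Under this setting, Spin1 was at 38.1% of all genes. Flanks of 100 kb gave 28 Spin1 and 58 H3K4me3 peaks away from member promoters, and flanks of 20 kb gave 18 H3K4me3 peaks, because the length searched differs. When the window reached 1 kb upstream but only 0.1 kb downstream, Pygm was no longer counted for Spin1, which left 6 members and 2 muscle isoforms. Windows of TSS±0.5 kb and TSS±2 kb, RefSeq Select transcripts, a score of at least 100, peak centers and, as chosen after seeing the data, GENCODE M21 transcripts gave the same genes. With TSS±500 bp in place of the promoter sequence, the members held 37 E-boxes in place of 15, and Pygb, Pygl and Phka2 then had 4, 4 and 2, so that the absence of E-boxes in these 3 genes holds for the 300 bases only. No paired analysis was possible because each antibody gave 1 library, and no replicate could be left out. Depth is unknown, and an unlisted peak is not an absent signal.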
